A study of Mus musculus with 16 samples.

Results

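The genes described here encode the machinery of oxidative phosphorylation in mouse liver, from the nuclear and from the mitochondrial genome. Members were the protein-coding rows of the deposited count table whose symbols begin with Ndufa, Ndufb, Ndufc, Ndufs, Ndufv, Uqcr, Cox4 to Cox8, Atp5 or mt-. This gave 101 of the 53465 genes in the table, of which 88 are nuclear and 13 are mitochondrially encoded. By symbol, 38 nuclear members were set to complex I, 8 to complex I assembly (the Ndufaf genes, which the same letters catch), 8 to complex III, 18 to complex IV and 16 to complex V. The mitochondrial members fell to complex I (7), complex III (1), complex IV (3) and complex V (2). Ndufa4, long listed with complex I and now usually placed with complex IV, was kept under its symbol.

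Oxidative phosphorylation passes electrons from NADH and succinate through complexes I to IV to oxygen, and the proton gradient so made drives ATP synthesis in complex V. The 13 proteins of mitochondrial DNA sit in complexes I, III, IV and V, while complex II and all other subunits are made from nuclear genes and imported, so each of these 4 complexes needs transcripts of both genomes. In liver the same chain reoxidises the electron carriers that fatty acid oxidation reduces.

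The libraries came from livers of 16 C57BL/6 mice aged 29 to 30 weeks, in 4 groups of 4 with each mouse a biological replicate. CD_vehicle and CD_PFOA mice ate a control diet, HFD_vehicle and HFD_PFOA mice a high-fat diet meant to give a fatty liver. After 16 weeks of diet, CD_PFOA and HFD_PFOA mice received PFOA for 8 weeks and the other groups received vehicle. PFOA is perfluorooctanoic acid, a persistent fluorinated surfactant that is known to activate the fatty acid receptor PPARα. The sources used here do not state the dose, the vehicle or the sex of the mice, nor whether the diets went on during treatment. The design asks what PFOA does in each diet, what the diet does with and without PFOA, and whether the effects depend on each other.

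Library totals were 14456524 counts in HFD_vehicle 3, 17890548 in HFD_vehicle 2 and 23485718 to 25778125 in the other 14. Levels are given as CPM, counts put on a common library size with edgeR's TMM scaling, and a gene was called where edgeR's quasi-likelihood test gave an adjusted p under 0.05 over the 14998 genes tested. Of the members, 91 passed the filter on low counts, 84 nuclear and 7 mitochondrial. The tissue label was met by hepatocyte markers: albumin and 5 other hepatocyte genes summed to 45151 to 124670 CPM in every library. CD_vehicle 1 and CD_vehicle 4 stood apart from the other control-diet vehicle libraries, so some results that rest on that group, mainly counts of calls, are also given without them. In bulk tissue, fewer cells of a type and less RNA per cell cannot be told apart.

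The reads of 6 mitochondrial members could not be followed, and sequences are shown for 3 genes to set such members beside measured ones. Over all 16 libraries together mt-Nd3 had 0 counts, mt-Nd4l 1, mt-Co3 2, mt-Atp8 6, mt-Co2 8 and mt-Atp6 47, whereas mt-Co1 had 8644004 and mt-Nd4 4016311. In the GENCODE M21 annotation of GRCm38, 5 of these 6 share 98.0% to 100% of their 50-base words with unprocessed pseudogenes on chromosome 1. mt-Co2, a catalytic core subunit of complex IV at chrM:7013-7696, aligned over 681 bases with 0 mismatches to Gm28661 at chr1:24614885-24615565 on the minus strand. Bases 311 to 370 of both transcripts show that a read from this window would match both places:
mt-Co2: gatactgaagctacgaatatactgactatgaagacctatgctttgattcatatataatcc
Gm28661: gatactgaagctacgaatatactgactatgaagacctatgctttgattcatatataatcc
mt-Co1, the other catalytic core subunit of complex IV at chrM:5328-6872, is shared over a part only, with 51.1% of its 50-base words found in other annotated genes, chief among them Gm29216 at chr1:24615706-24616197. The start of that copy, against bases 1054 to 1113 of mt-Co1, differs at the bases in capitals and then runs on unchanged:
mt-Co1: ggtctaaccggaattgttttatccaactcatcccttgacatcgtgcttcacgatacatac
Gm29216: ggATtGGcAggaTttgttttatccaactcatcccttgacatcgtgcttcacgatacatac
mt-Nd1, a complex I core subunit at chrM:2751-3707, shares no 50-base word with another annotated gene. Bases 449 to 508 are shown as an example of sequence absent from other annotated genes, while unannotated parts of the genome were not searched:
mt-Nd1: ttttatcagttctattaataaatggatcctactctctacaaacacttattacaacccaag

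The copies held few counts as well. Gm28661 had 686 counts over the 16 libraries, and the copies of mt-Co3, mt-Atp6, mt-Nd4l and mt-Nd3 had 950, 1586, 81 and 1065. mt-Nd4, with 62.2% of its words shared with Gm28439, and mt-Co1 kept the counts given above. mt-Atp8, a short gene of 204 bases that overlaps mt-Atp6 by 43 bases, was near 0 and shared no word with another annotated gene. Unannotated parts of the genome were not searched. mt-Atp8, at chrM:7766-7969, lies between mt-Co2 and most of mt-Atp6. On chromosome 1 the copy of mt-Atp6 ends at 24614651 and that of mt-Co2 starts at 24614885. Whether the stretch between them holds a copy of mt-Atp8 was not tested. Neither the read length nor the counting of reads that match several places is stated in the sources used here. The part of either in these counts was not tested. Values for mt-Nd3, mt-Nd4l, mt-Co2, mt-Co3, mt-Atp6 and mt-Atp8 are not read as levels here.

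**Figure D1:**
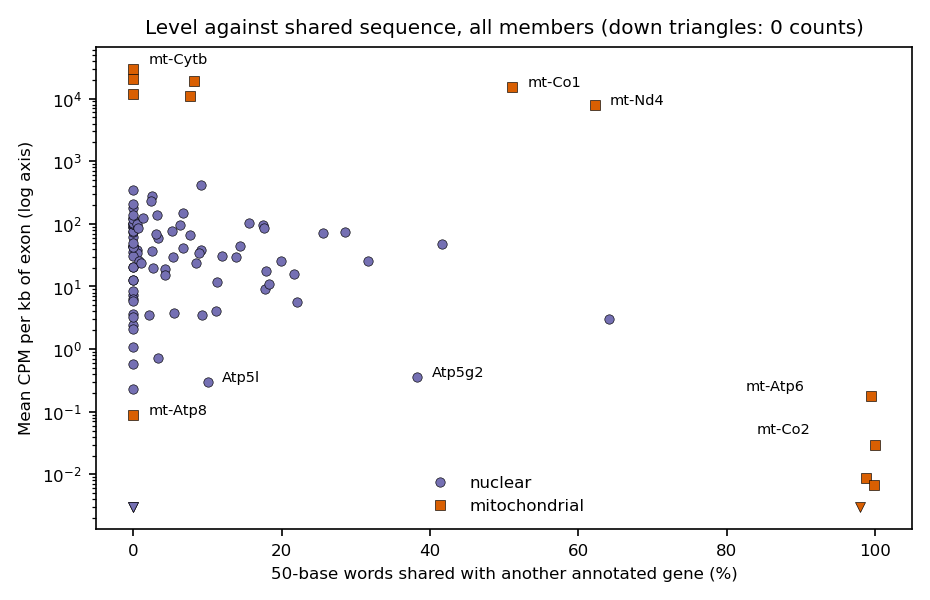
Mean level of each of the 101 genes in CPM per kb of exon (log axis) against the percentage of its 50-base words found in another annotated gene; circles are nuclear genes, squares mitochondrial genes and down triangles genes with 0 counts. The 5 mitochondrial genes near 100% lie below 1 CPM per kb, while mt-Co1 and mt-Nd4, shared in part, lie with the other abundant mitochondrial genes.

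Per length, the 7 measured mitochondrial genes were the most abundant members. mt-Cytb, the single mitochondrial subunit of complex III, stood highest at 29760 CPM per kb of exon, and mt-Nd4 was the lowest of the 7 at 7844. mt-Nd4 and mt-Co1 share 62.2% and 51.1% of their 50-base words with other annotated genes. Their levels, and so the order among the 7, are uncertain. The highest nuclear member, Cox6a1, reached 422.6 CPM per kb, followed by Cox8a at 351.8 and Atp5a1, the alpha subunit of ATP synthase, at 276.5. At the other end stood Atp5g2, which encodes an isoform of the membrane-ring subunit c, at 0.36 CPM per kb beside 136.3 for its paralog Atp5g3, and Atp5l, the subunit g gene, at 0.30. Atp5g2 shares 38.3% and Cox7c, at 5.67 CPM per kb, 22.1% of its 50-base words with other annotated genes, so their levels are uncertain. The same holds for Ndufaf2 (64.1%), Atp5o (41.6%), Ndufb6 (31.6%), Ndufa13 (28.5%) and Uqcrb (25.5%), of which all but Ndufaf2 were called in a comparison.

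The nuclear members together were lowest in HFD_vehicle. The summed level of the 88 nuclear members was 7923, 9008, 9288 and 9388 CPM in the CD_vehicle libraries and 8322, 8830, 9923 and 8791 in CD_PFOA. With the high-fat diet it was 7558, 7016, 7132 and 7379 under vehicle and 8550, 8190, 7534 and 8022 under PFOA. All 4 HFD_vehicle libraries lay below all 4 CD_vehicle libraries, and only 1 HFD_PFOA library reached down into the HFD_vehicle range. This separation rests on the TMM scaling: on plain library totals CD_vehicle 1, at 7371 CPM, lay below all 4 HFD_vehicle libraries (7405 to 8080), and on totals without mitochondrial genes it did so too, at 8156 against 8513 to 9053. The means were 8902 ± 672 (SD, n = 4), 8966 ± 678, 7271 ± 244 and 8074 ± 422 in the same order.

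The mitochondrial members took a larger share of the counts with PFOA. They made up 9.62% to 13.4% of all counts in CD_vehicle and 14.3% to 17.4% in CD_PFOA, and 10.6% to 13.02% in HFD_vehicle against 13.3% to 14.6% in HFD_PFOA. In both diets every PFOA library lay above every vehicle library by this share. The share of the nuclear members separated in the high-fat diet too, at 0.741% to 0.808% in HFD_vehicle and 0.825% to 0.850% in HFD_PFOA. In control diet it overlapped, at 0.737% to 0.906% in CD_vehicle and 0.837% to 0.933% in CD_PFOA. Scaled to CPM, the mitochondrial sum was 132910 ± 22485 (SD, n = 4) without and 159500 ± 19470 with PFOA in control diet, and 109160 ± 13064 and 134140 ± 8718 in high-fat diet, and the libraries of the compared groups then overlapped. The ratio of mitochondrial to nuclear CPM was 14.9 ± 1.85 and 17.7 ± 0.970 in control diet without and with PFOA, and 15.03 ± 1.93 and 16.6 ± 0.564 in high-fat diet. In control diet the ratios of the 2 groups did not overlap, whereas in high-fat diet HFD_vehicle 3, at 17.6, lay above all HFD_PFOA libraries.

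**Figure D2:**
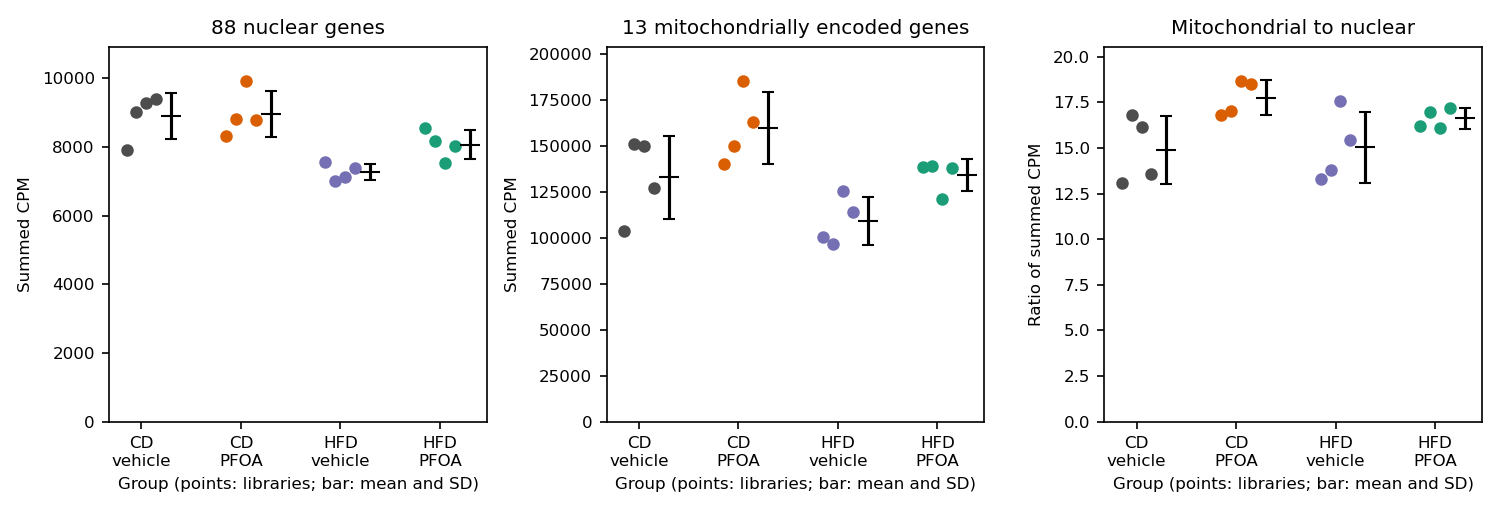
Summed CPM of the 88 nuclear and of the 13 mitochondrial genes and the ratio of the sums, for each of the 16 libraries (points) with the mean and SD of 4 libraries (bar). Nuclear sums in HFD_vehicle lie between 7016 and 7558, below every CD_vehicle library with TMM scaling (not on library totals, where CD_vehicle 1 is lowest), while mitochondrial sums are higher on average with PFOA in both diets.

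The high-fat diet in vehicle-treated mice went with lower transcripts of 32 of the 84 nuclear members tested, spread over all 4 complexes, and raised none. The calls were 16 of 38 in complex I, 4 of 8 in complex III, 5 of 14 in complex IV and 7 of 16 in complex V, and none of the 8 Ndufaf assembly genes. Over all genes tested edgeR called 5.21% lower and 5.19% higher, against 38.1% of the nuclear members lower. The 32 lay between 17.2% and 30.2% below control diet, so each change was modest. The median log2 fold change of the nuclear members was -0.32, beside -0.03 over all genes tested, and 78 of 84 were negative. In 39 of the 84 all HFD_vehicle libraries lay below all CD_vehicle libraries, which held for 7.21% of all genes tested.

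Complex I, the NADH dehydrogenase through which most electrons enter the chain, was represented among the calls by core and accessory subunits. Ndufb10, an accessory subunit of the membrane arm, stood at 84.9, 96.2, 99.9 and 104 CPM in CD_vehicle and at 75.6, 69.3, 65.3 and 72.6 in HFD_vehicle. The groups did not overlap, and edgeR gave a log2 fold change of -0.45 ± 0.08 (SE) with an adjusted p of 0.00209. Ndufb11, also of the membrane arm, went from 96.8 ± 10.04 CPM (SD, n = 4) to 71.9 ± 3.99 (log2 fold change -0.43, edgeR adjusted p 0.00371). Ndufa4 went from 195 ± 16.9 to 149.8 ± 6.31 CPM (-0.38, edgeR adjusted p 0.00750). The other 13 complex I genes called lower had log2 fold changes within the range of all 32, -0.52 to -0.27.

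Complex III hands electrons from ubiquinol to cytochrome c. Its hinge protein gene Uqcrh stood at 81.5, 109, 105 and 110 CPM in CD_vehicle and at 73.3, 70.7, 72.6 and 74.6 in HFD_vehicle. The low value in the first group is that of CD_vehicle 1, and the groups still did not overlap (log2 fold change -0.48 ± 0.10, edgeR adjusted p 0.00370). Uqcrq, a small subunit, fell from 217.6 ± 6.19 to 165 ± 11.4 CPM and Uqcrfs1, the Rieske iron-sulfur protein, from 145 ± 8.93 to 120.2 ± 2.37 CPM (edgeR adjusted p 0.00416 and 0.0388). Uqcrq kept its call in 21 of 22 alternatives and Uqcrfs1 in 8. The fourth call was Uqcrb, outside the naming rule and added after its values were seen, at a log2 fold change of -0.42 (edgeR adjusted p 0.0472) with overlapping groups.

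In complex IV, cytochrome c oxidase, Cox7b had the largest change of all nuclear members called. It stood at 122, 158, 140 and 157 CPM in CD_vehicle against 105, 94.6, 102 and 102 in HFD_vehicle, with no overlap. The log2 fold change was -0.52 ± 0.10 (edgeR adjusted p 0.00194). Cox5b, a nuclear subunit on the matrix side, fell from 58.6 ± 4.56 to 41.8 ± 1.27 CPM and Cox8a from 234.4 ± 23.9 to 179 ± 12.3 CPM. Cox4i1, the main isoform of a regulatory subunit, had a log2 fold change of -0.27 that did not pass (edgeR adjusted p 0.0891).

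Complex V, the ATP synthase, followed with subunits of its stalk and membrane parts. Atp5j, coupling factor 6 of the peripheral stalk, stood at 112, 136, 147 and 111 CPM in CD_vehicle and at 102, 87.9, 84.7 and 88.1 in HFD_vehicle, with no overlap (log2 fold change -0.48 ± 0.10, edgeR adjusted p 0.00370). Atp5j2, subunit f, changed by -0.48 and Atp5h, subunit d, by -0.50 on the log2 scale.

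Of the mitochondrial members, mt-Nd1 and mt-Co1 were called lower in HFD_vehicle. mt-Nd1 ran from 14032 to 20355 CPM in CD_vehicle and from 12918 to 15193 in HFD_vehicle, and mt-Co1 had a log2 fold change of -0.40 ± 0.12. Both calls lay just under the threshold, with edgeR adjusted p of 0.0495 and 0.0427, and stood in 8 and 10 of 22 alternatives, and in both genes the groups overlapped. mt-Cytb (-0.33, edgeR adjusted p 0.123) and mt-Nd4 (-0.37, edgeR adjusted p 0.0940) did not pass.

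How the libraries are scaled sets the size of the diet difference. With library totals in place of TMM, the median of all genes moved from -0.03 to 0.19, calls over all genes split into 2052 higher and 288 lower instead of 779 and 782, and 1 nuclear member, Cox7b, was still called lower (-0.30, edgeR adjusted p 0.0297). The nuclear members' median lay 0.29 below that of all genes under both scalings. Without CD_vehicle 1 and 4, chosen for omission after the data were seen, 41 nuclear members were called lower. Among single libraries, leaving out CD_vehicle 1 raised the count to 42. It was 21 without CD_vehicle 2, 15 without CD_vehicle 3, and 16, 18 and 21 without HFD_vehicle 2, 3 and 4.

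Other cell markers moved with the diet as well. Summed over the 6 hepatocyte markers the libraries ran from 84537 to 124670 CPM in CD_vehicle and from 70608 to 83508 in HFD_vehicle, and 4 of the 6 were called lower. The 6 stellate and fibroblast markers summed to 227.5 to 427 CPM in CD_vehicle and 519 to 594 in HFD_vehicle, the 5 cholangiocyte markers to 45.9 to 96.7 and 124 to 249, and the 8 macrophage markers to 199 to 391 and 415 to 604. None of the genes in these 4 lists was at 0 in every library. Their part in the nuclear members' values was not tested.

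**Figure D3:**
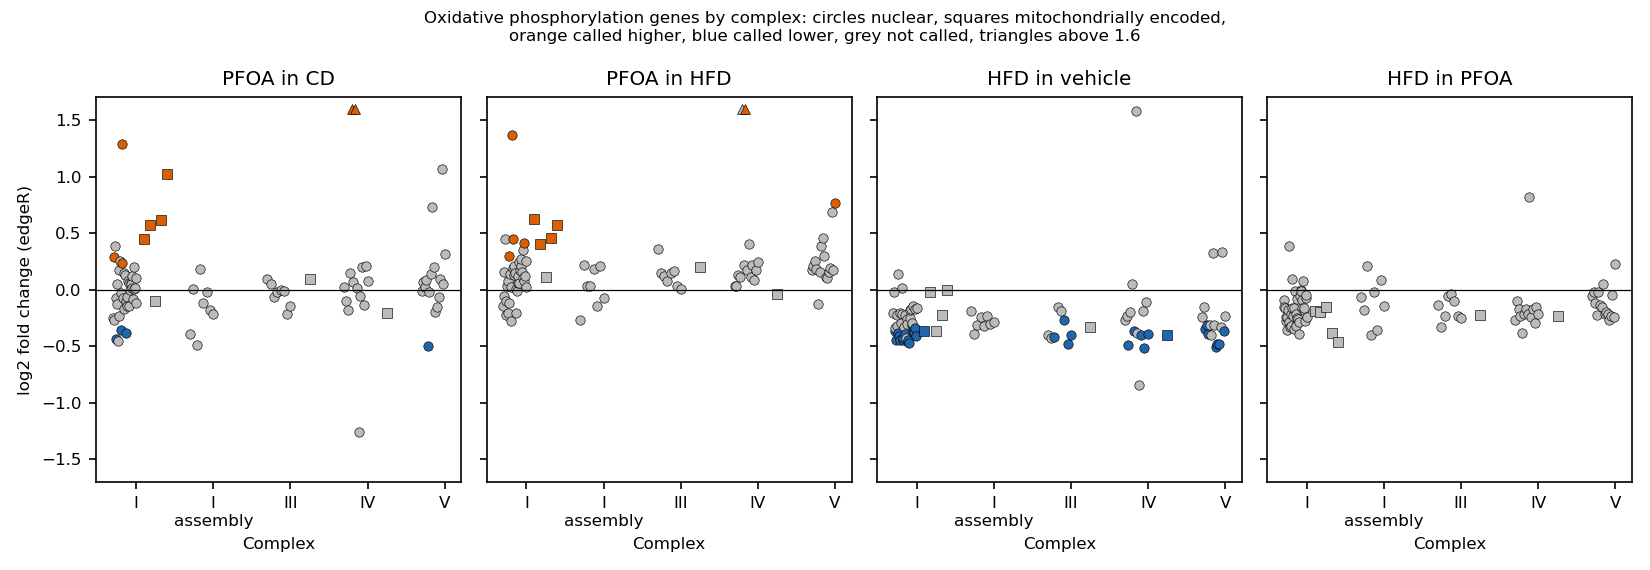
edgeR log2 fold change of each of the 91 members tested, by complex, in the 4 comparisons of 2 groups; circles are nuclear and squares mitochondrial members, with calls in orange (higher) and blue (lower) and triangles for values above 1.6. In the high-fat diet panel for vehicle the 32 nuclear calls are all lower, and in the PFOA panels the orange squares are 4 mitochondrial complex I genes.

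PFOA in the control diet gave few calls among nuclear members and raised mt-Nd1, mt-Nd2, mt-Nd5 and mt-Nd6, 4 of the 5 mitochondrial complex I genes tested. Of 84 nuclear members, edgeR called 5 higher and 4 lower, 5.95% and 4.76%, beside 11.8% and 12.6% of all genes tested. With library totals as the scale the split was 8 higher and 2 lower. The nuclear median was -0.00 and that of all genes -0.00 on the log2 scale. Of the 7 mitochondrial members tested, 4 were called higher and none lower; without CD_vehicle 1 and 4 there were 5 calls, mt-Co1 being lower. PFOA in CD and the high-fat diet in vehicle share the CD_vehicle libraries, so the calls of these comparisons are not independent of each other.

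In the high-fat diet PFOA raised 6 of the 84 nuclear members, or 7.14%, and lowered none, where edgeR called 8.60% of all genes higher and 7.91% lower. The nuclear median log2 fold change was 0.14 beside 0.01 for all genes, and 71 of 84 were positive. In 23 of the 84 all HFD_PFOA libraries lay above all HFD_vehicle libraries, against 12.9% of all genes tested. No nuclear member was called lower by edgeR with all 16 libraries or by DESeq2. On these 2 groups alone edgeR called 2 lower and 12 higher, beside 1722 lower and 1689 higher of the 14008 genes then tested. The same 4 mitochondrial members as in the control diet were called higher.

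Those 4 genes, mt-Nd1, mt-Nd2, mt-Nd5 and mt-Nd6, encode membrane subunits of complex I. mt-Nd6, at chrM:13552-14070 and the only one of the 13 annotated on the minus strand, stood at 3357, 4730, 5428 and 4616 CPM in CD_vehicle and at 7713, 8713, 10630 and 9780 in CD_PFOA. With the high-fat diet it stood at 3374, 3358, 5955 and 5352 under vehicle and at 7122, 7327, 5205 and 7097 under PFOA. In the control diet the groups did not overlap (log2 fold change 1.02 ± 0.18, edgeR adjusted p 0.000351), and in the high-fat diet the rise was 0.57 ± 0.18 (edgeR adjusted p 0.0379) with HFD_PFOA 3 inside the vehicle range. The libraries were not stranded, so a read anywhere over mt-Nd6 does not show which strand it came from. In the annotation mt-Nd6 shares 14 bases with mt-Nd5 on the opposite strand. The part of opposite-strand RNA in the mt-Nd6 values was not tested.

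mt-Nd5 rose by 0.62 ± 0.13 in the control diet and 0.46 ± 0.13 in the high-fat diet (edgeR adjusted p 0.00152 and 0.0193). Its libraries ran from 14036 to 20335 CPM in CD_vehicle and from 23423 to 31537 in CD_PFOA, and from 13384 to 18198 and 17933 to 22433 in the high-fat groups. mt-Nd2 rose by 0.57 and 0.40 (edgeR adjusted p 0.00322 and 0.0443), and mt-Nd1 by 0.44 and 0.62 (edgeR adjusted p 0.00795 and 0.000727). In the control diet none of the 4 overlapped between groups, and in the high-fat diet mt-Nd1 alone did not: 12918 to 15193 CPM in HFD_vehicle against 20286 to 22856 in HFD_PFOA. In the high-fat diet the 4 calls became 1 without HFD_vehicle 1, HFD_vehicle 2, HFD_PFOA 2 or HFD_PFOA 4, each left out alone, and 2 without HFD_PFOA 1.

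The other 3 measured mitochondrial genes did not pass in either diet with all libraries. mt-Cytb had log2 fold changes of 0.09 ± 0.13 and 0.20 ± 0.13, mt-Nd4 of -0.10 ± 0.14 and 0.11 ± 0.14, and mt-Co1 of -0.21 ± 0.12 and -0.04 ± 0.12, with edgeR adjusted p from 0.231 to 0.879. Without CD_vehicle 1 and 4, mt-Co1 was called lower with PFOA in the control diet (-0.42, edgeR adjusted p 0.00616). Of these 3, mt-Nd4 and mt-Co1 have annotated chromosome 1 copies, while mt-Cytb shares no 50-base word with another annotated gene.

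The make-up of the mitochondrial counts therefore differed with PFOA, which does not depend on how the libraries are scaled. mt-Co1 gave 22.0%, 21.2%, 21.3% and 19.1% of the mitochondrial protein-coding counts in CD_vehicle and 15.1%, 14.8%, 15.1% and 15.1% in CD_PFOA. Its share was 20.6%, 19.5%, 18.5% and 18.8% in HFD_vehicle and 16.3%, 14.0%, 16.5% and 14.2% in HFD_PFOA, so vehicle and PFOA did not overlap in either diet. The share of mt-Nd5 went the other way, from 13.4% ± 0.475 (SD, n = 4) to 17.1% ± 0.402 in the control diet and from 14.0% ± 0.609 to 15.6% ± 0.572 in the high-fat diet, again without overlap. mt-Nd4 went from 9.15% ± 0.373 to 7.14% ± 0.225 and from 8.64% ± 0.415 to 7.61% ± 0.118. mt-Cytb, the largest part throughout, went from 27.1% ± 0.839 to 24.2% ± 0.503 and from 26.2% ± 0.137 to 24.5% ± 0.407. mt-Nd6 went from 3.41% ± 0.258 to 5.77% ± 0.206 without overlap in the control diet, while in the high-fat diet HFD_PFOA 3 fell within the vehicle range. Shares of 1 total are tied to each other, so a rise of some forces a fall of others.

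**Figure D4:**
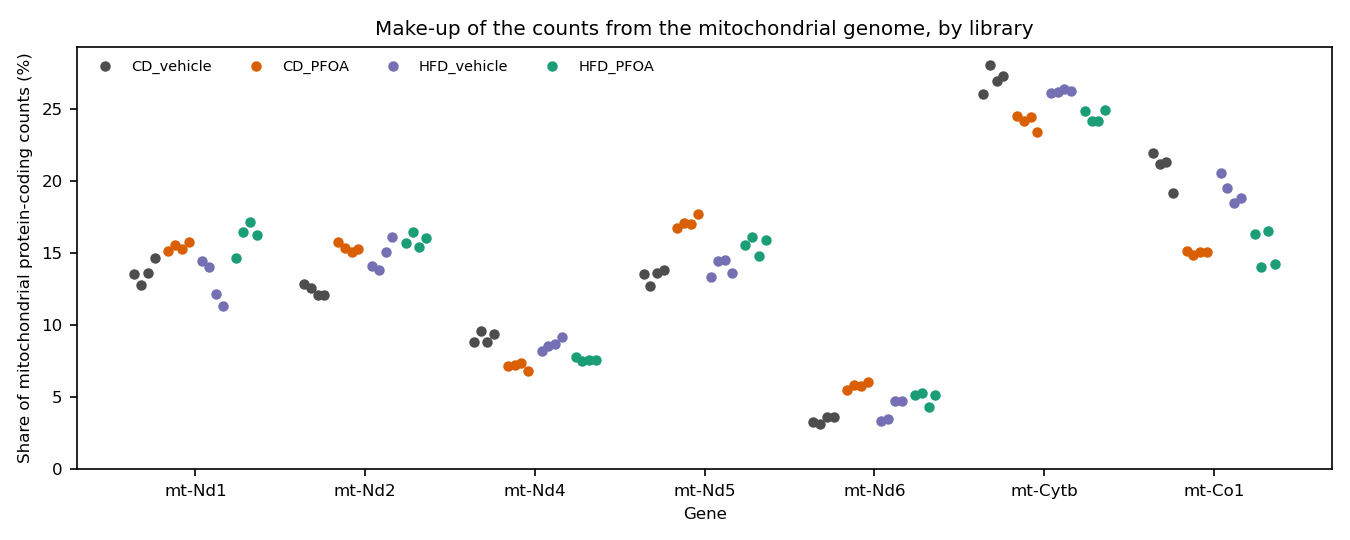
Share of each of the 7 measured mitochondrial genes in the protein-coding counts of the mitochondrial genome (percent), 1 point per library, coloured by group. mt-Co1, mt-Nd4 and mt-Cytb take smaller shares and mt-Nd5 and mt-Nd6 larger ones with PFOA, in both diets on average.

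The mitochondrial ribosomal RNAs, which are outside the rule, rose as well: mt-Rnr1 by 0.87 ± 0.12 and 1.09 ± 0.13 and mt-Rnr2 by 0.77 ± 0.13 and 0.71 ± 0.13 (edgeR adjusted p 3.05e-05, 3.34e-06, 0.000214 and 0.000664 in control and high-fat diet). Together they were 0.155% to 0.227% of counts without and 0.356% to 0.404% with PFOA in control diet, and 0.152% to 0.176% and 0.265% to 0.339% in high-fat diet.

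Among nuclear members, Cox6b2 gave the largest response to PFOA. It encodes the isoform of complex IV subunit 6b known from testis, on chromosome 7 at chr7:4751792-4753094. It stood at 0.167, 0.183, 0 and 0 CPM in CD_vehicle and 15.1, 14.6, 14.5 and 9.65 in CD_PFOA, and at 0.348, 0.102, 0.266 and 0.345 CPM in HFD_vehicle against 9.15, 11.7, 15.6 and 11.2 in HFD_PFOA. Summed over each group these were 8 and 1295 counts in control diet and 24 and 1189 in high-fat diet. From these sums the PFOA to vehicle ratio was 152 in the control diet, with a 95% counting interval of 77.0 to 353, and 43.2 in the high-fat diet, with 28.9 to 67.7. edgeR gave log2 fold changes of 7.17 ± 0.45 and 5.42 ± 0.39 (adjusted p 6.78e-10 and 5.84e-09), and the difference between diets was not called (interaction -1.75, adjusted p 0.325). Cox6b2 passed the low-count filter through its PFOA libraries, so a difference had to follow from its being tested. Per length, its mean in CD_PFOA was 12.1 CPM per kb, beside 231 for Cox6b1, its widely expressed paralog. Cox6b1 stood at 157 ± 21.9 CPM (SD, n = 4) in CD_vehicle and 164 ± 13.1 in CD_PFOA (log2 fold change 0.07, edgeR adjusted p 0.682). Of 5 testis germ cell markers, Prm2, Tnp1, Ldhc and Odf1 were at 0 in all libraries, and the summed level was at most 0.368 CPM.

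The RefSeq promoter windows of this pair, 250 bases before to 50 after the start in GRCm38.p6, are shown because the paralogs responded so differently. Capitals mark matches, on either strand, to CCAAT (also read as ATTGG) and, in Cox6b1, to the ETS core CCGGAAG bound by factors such as GABPA. The windows are chr7:4753045-4753344 and chr7:30626065-30626364, both on the minus strand:
Cox6b2: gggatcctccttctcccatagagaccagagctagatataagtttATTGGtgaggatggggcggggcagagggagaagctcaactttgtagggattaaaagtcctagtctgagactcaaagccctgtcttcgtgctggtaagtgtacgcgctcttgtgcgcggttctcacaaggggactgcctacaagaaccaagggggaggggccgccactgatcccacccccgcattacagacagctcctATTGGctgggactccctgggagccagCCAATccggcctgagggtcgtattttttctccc
Cox6b1: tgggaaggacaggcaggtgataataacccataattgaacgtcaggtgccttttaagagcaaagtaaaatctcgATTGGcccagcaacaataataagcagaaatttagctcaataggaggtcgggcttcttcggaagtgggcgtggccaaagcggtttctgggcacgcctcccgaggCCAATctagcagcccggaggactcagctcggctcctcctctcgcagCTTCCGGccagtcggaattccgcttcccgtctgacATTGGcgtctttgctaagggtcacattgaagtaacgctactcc
Both windows hold 3 CCAAT matches, and neither holds AGGTCANAGGTCA, a strict form of the direct repeat that PPAR binds and that 0.047% of all promoter windows hold.

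Cox6a2, the heart and muscle isoform of subunit 6a, was low everywhere and higher with PFOA in the control diet. Its counts were 0, 0, 0 and 8 without and 15, 32, 21 and 30 with PFOA in control diet, and 0, 4, 3 and 0 without and 2, 26, 15 and 35 with PFOA in high-fat diet. edgeR gave 3.47 ± 1.15 (adjusted p 0.0335) in the control diet and 3.03 ± 1.17 (adjusted p 0.0866) in the high-fat diet. The pooled ratios were 11.5 (95% counting interval 5.62 to 27.4) and 9.72 (4.502 to 24.98), and like Cox6b2 the gene passed the filter through its PFOA libraries. Myh2, Myh4 and Myh6, of 12 skeletal muscle and heart markers, were at 0 in all libraries, and the 12 summed to 0.342 to 5.22 CPM in CD_vehicle and 0.0818 to 0.831 in CD_PFOA. The ubiquitous Cox6a1 had 0.14 and 0.11 (edgeR adjusted p 0.42 and 0.61).

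The other second isoforms gave no call. Cox7a1, the muscle form, ran from 0.207 to 2.58 CPM over all libraries, and Ndufa4l2, a paralog of Ndufa4 known for its induction by low oxygen, from 0.532 to 1.92. Cox4i2 and Cox8b were under the filter with 68 and 78 counts in all, and of the 78 for Cox8b a single library, CD_PFOA 3, held 33. Cox8c and Cox7b2, both known from testis, had 0 counts.

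Ndufab1 rose most among nuclear complex I members. It encodes the mitochondrial acyl carrier protein, which is a complex I subunit and also carries acyl chains in mitochondrial fatty acid synthesis, on chromosome 7 at chr7:122085403-122101886. It stood at 12.9, 11.04, 16.2 and 14.99 CPM in CD_vehicle and 41.5, 32.6, 28.2 and 32.4 in CD_PFOA, and at 11.7, 15.3, 13.9 and 14.8 in HFD_vehicle and 37.3, 38.4, 32.5 and 35.6 in HFD_PFOA. All PFOA libraries lay above all vehicle libraries, and the diet comparisons gave no call. The log2 fold changes were 1.29 ± 0.13 and 1.37 ± 0.14 (edgeR adjusted p 6.89e-07 and 4.60e-07).

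Ndufb10 was higher with PFOA in both diets and lower with the high-fat diet in vehicle. It stood at 108, 114, 121 and 112 CPM in CD_PFOA and at 88.9, 98.8, 96.8 and 101 in HFD_PFOA, beside the vehicle values above. The log2 fold changes for PFOA were 0.24 ± 0.08 and 0.45 ± 0.08 (edgeR adjusted p 0.0425 and 0.000745), and the first kept its call in 8 of 22 alternatives. HFD_PFOA lay within the range of CD_vehicle, with means of 96.3 ± 5.21 and 96.4 ± 8.36 CPM.

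**Figure D5:**
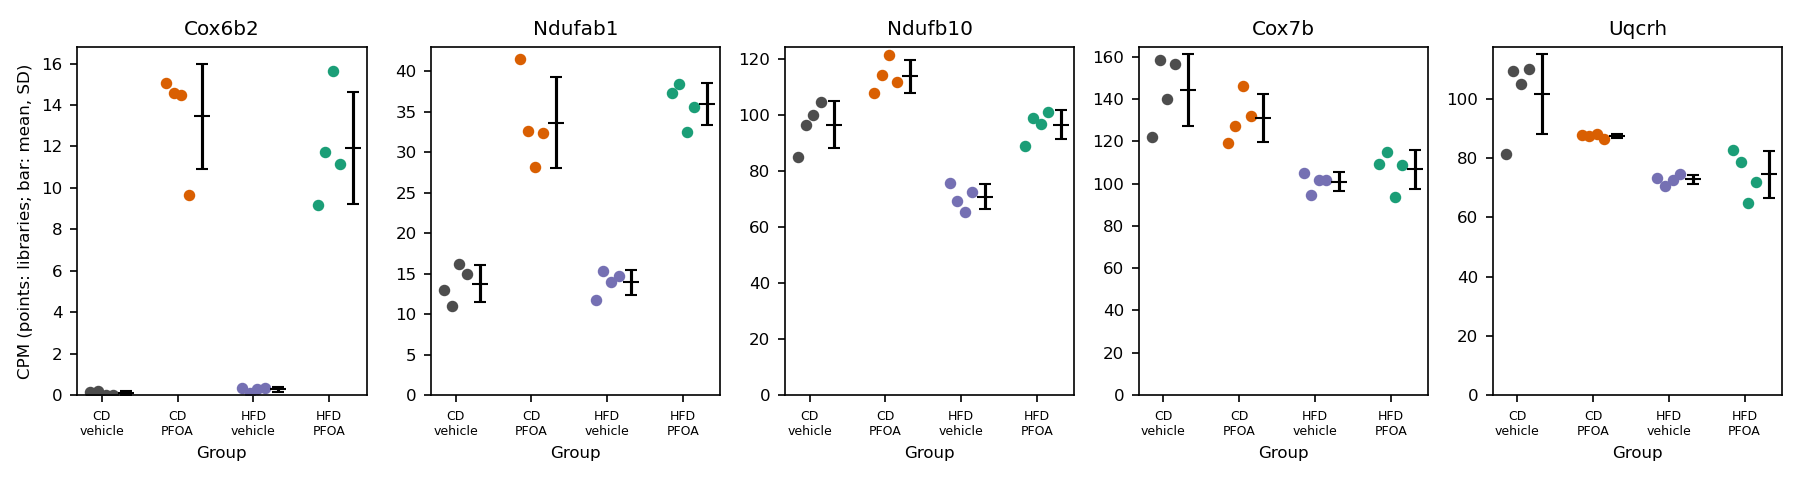
CPM of Cox6b2, Ndufab1, Ndufb10, Cox7b and Uqcrh in each of the 16 libraries (points) with the mean and SD of the 4 libraries of a group (bar). Cox6b2 and Ndufab1 separate by PFOA, Cox7b and Uqcrh are lower in HFD_vehicle than in CD_vehicle, and Ndufb10 does both.

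Ndufs7, a core subunit that carries the last iron-sulfur cluster before ubiquinone, rose with PFOA in the high-fat diet from 45.8 ± 5.49 to 60.9 ± 6.07 CPM (log2 fold change 0.41, edgeR adjusted p 0.0169). It was among the genes lower with the high-fat diet in vehicle, as was Ndufa5, outside the naming rule, which rose by 0.30 (edgeR adjusted p 0.0437). Ndufb10, Ndufa5 and Ndufs7 were the 3 nuclear members called in both directions, and the comparisons share the HFD_vehicle libraries. Atp5s, also called factor B, rose from 4.90 ± 0.735 to 8.36 ± 1.39 CPM with PFOA in the high-fat diet (0.77 ± 0.26, edgeR adjusted p 0.0477). Atp5s and Ndufa5 each kept this call in 11 of 22 alternatives, and Ndufs7 in 19.

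In the control diet Ndufa10, an accessory complex I subunit, rose from 139 ± 9.44 to 169.6 ± 17.8 CPM (0.29, edgeR adjusted p 0.0207). The 4 nuclear members that fell with PFOA there were Ndufa13, Ndufa8 and Ndufb6 of complex I and Atp5e, the epsilon subunit of ATP synthase. Atp5e stood at 44.2, 46.0, 48.8 and 41.6 CPM in CD_vehicle and 27.1, 31.4, 37.6 and 31.9 in CD_PFOA, without overlap (-0.50 ± 0.12, edgeR adjusted p 0.00377). Ndufa13 (-0.44, edgeR adjusted p 0.00964), Ndufa8 (-0.35, 0.0396) and Ndufb6 (-0.38, 0.0447) overlapped between groups. Over 22 alternatives Ndufa13 kept its call in 21, Ndufa8 in 12 and Ndufb6 in 6. Ndufa13 and Atp5e were lower with the high-fat diet in vehicle too, a comparison with the same CD_vehicle libraries.

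With PFOA on board the diets differed less clearly. Between HFD_PFOA and CD_PFOA edgeR called none of the 91 members, while it called 0.0600% of all genes in either direction. DESeq2 called 1 nuclear member lower. The nuclear median log2 fold change from edgeR was -0.18 beside 0.00 for all genes. In 17 of the 84 all HFD_PFOA libraries lay below all CD_PFOA libraries, a pattern seen in 3.53% of all genes tested. The test of the difference itself, the diet by PFOA interaction, called no member with edgeR or DESeq2, and 0.207% of all genes. The nuclear members' median interaction was 0.15, beside 0.02 for all genes, and a different response to diet under PFOA was not shown for any single member.

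In all, 45 of the 84 nuclear members tested were called in no comparison, all 8 assembly genes among them. The matching share of all genes tested was not taken, so this count is not read as a result about the members. Ndufaf3 and Ndufaf5 stood at means of 7.85 ± 1.12 and 4.78 ± 0.865 CPM in CD_vehicle. Cox7c, Atp5l and Atp5g2 were also without a call, at 6.22 ± 1.17, 1.21 ± 0.688 and 0.429 ± 0.313 CPM in the same group.

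Short motifs were sought in the promoters of the members. RefSeq windows were matched for 73 of the 88 nuclear members, 78 windows in all. The YY1 core AAGATGGCG was in 10.3% of these and in 1.83% of the 21263 windows of all protein-coding genes, and the NRF1 core GCATGCGC in 14.1% against 3.52%. The ETS core CCGGAAG was in 20.5% against 11.6%, the ERR core TCAAGGTCA in 1.28% against 0.334%, and CCAAT in 42.3% against 38.2%. All were sought on both strands. Among the 33 windows of members called lower with the high-fat diet in vehicle, 5 held the YY1 core (15.2%), 8 the ETS core (24.2%) and 2 the NRF1 core (6.06%). Of the other 45 windows 3 (6.67%), 8 (17.8%) and 9 (20.0%) held these cores. This split follows calls from these same data that change with the scaling, and the differences between these small counts were not tested. Atp5j and Atp5e are shown as called members with such matches, in capitals: the YY1 core and CCGGAAG in the second of the RefSeq windows of Atp5j (chr16:84834927-84835226, minus strand), and the ETS core on the other strand and CCAAT in Atp5e (chr2:174464052-174464351, minus strand):
Atp5j: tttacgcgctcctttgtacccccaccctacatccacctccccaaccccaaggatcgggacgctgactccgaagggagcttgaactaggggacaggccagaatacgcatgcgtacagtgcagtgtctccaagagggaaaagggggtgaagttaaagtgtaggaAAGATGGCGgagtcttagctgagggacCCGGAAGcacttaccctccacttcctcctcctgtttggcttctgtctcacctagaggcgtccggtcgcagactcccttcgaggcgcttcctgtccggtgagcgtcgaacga
Atp5e: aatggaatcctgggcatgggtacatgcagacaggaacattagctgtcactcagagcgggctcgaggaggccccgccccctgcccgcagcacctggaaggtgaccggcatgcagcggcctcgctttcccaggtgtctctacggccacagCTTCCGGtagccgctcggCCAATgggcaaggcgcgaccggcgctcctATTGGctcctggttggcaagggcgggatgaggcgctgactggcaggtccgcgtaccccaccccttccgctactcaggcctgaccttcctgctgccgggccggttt
A match is a description of letters in these windows and shows no binding.

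Around the members, the electron carriers that feed the chain were measured as well. Of 8 tested genes for cytochrome c and such carriers, 3 rose and 2 fell with PFOA in each diet, where 11.8% of all genes rose and 12.6% fell in control diet and 8.60% and 7.91% in high-fat diet. Etfdh, which passes electrons from fatty acid oxidation to ubiquinone, went from 348 ± 26.7 to 568 ± 22.7 CPM in the control diet and from 324 ± 17.1 to 559 ± 34.5 in the high-fat diet (log2 fold changes 0.71 and 0.79, edgeR adjusted p 2.36e-06 and 9.11e-07). Prodh, proline dehydrogenase, fell by 1.49 and 1.27 on the log2 scale. Of the 8 complex II genes, Sdha, the flavoprotein subunit, was the only call for PFOA (-0.36 in the control diet, edgeR adjusted p 0.00336), and Sdhd, a membrane anchor, the only call for the high-fat diet in vehicle (-0.41, edgeR adjusted p 0.00901).

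Of 8 tested uncoupling proteins and nucleotide or phosphate carriers, 3 rose in each diet with PFOA. Of all genes tested 11.8% rose in the control diet and 8.60% in the high-fat diet. Ucp3, known mainly from muscle, had 0 counts in CD_vehicle and 782 in CD_PFOA, at least 245-fold higher against a floor of 3 counts over the group. In the high-fat diet it had 5 counts under vehicle and 1166 under PFOA, a ratio of 203 (95% counting interval 86.9 to 628). Like Cox6b2, Ucp3 passed the low-count filter through its PFOA libraries, so a difference had to follow from its being tested. Ucp2 rose by 2.59 ± 0.22 and 1.64 ± 0.21 (edgeR adjusted p 3.25e-08 and 1.06e-05). Among 13 regulators of respiratory genes the coactivators parted: Ppargc1b rose by 1.61 and 1.30 and Ppargc1a fell by 1.14 and 0.76 (edgeR adjusted p 0.000271, 0.00237, 0.000717 and 0.0201). Of 42 tested assembly factors outside the rule, 2 rose and 2 fell with PFOA in the control diet, and 1 rose and 1 fell in the high-fat diet. These shares of assembly factors with PFOA were below those of all genes tested. With the high-fat diet in vehicle 3 of the 42 fell, where 5.21% of all genes fell. That count is not read as a result about the list.

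Markers of cell types moved with PFOA too. The 6 hepatocyte markers summed to 50932 to 67655 CPM in CD_PFOA and 45151 to 55248 in HFD_PFOA, below the vehicle group of the same diet, and all 6 were called lower in each diet. The 8 adipocyte markers summed to 22.9 to 87.3 CPM without and 213 to 279 with PFOA in control diet, and to 165 to 254 and 322 to 474 in high-fat diet. Only 4 of these 8 passed the filter on low counts, Lep was at 0 in all libraries, and most of the sum lay in Fabp4, Cidea and Cidec. In the high-fat diet the cholangiocyte sum was 124 to 249 CPM under vehicle and 55.3 to 78.8 under PFOA. The stellate and fibroblast sum was 519 to 594 CPM under vehicle and 388 to 489 under PFOA, and neither list overlapped between these groups. Their part in the values of the members was not tested.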

How the data were processed

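RNA of 16 frozen mouse livers was sequenced from non-stranded libraries, per the labels' protocols. STAR 2.5.2b, featureCounts (Subread 1.6.0), Trimmomatic 0.33, bcl2fastq 2.20.0.422 and the build GRCm38 (mm10) are named, without roles, in processing notes of the submitters; no annotation release is stated in the sources used here. The authors deposited raw counts per gene, whole numbers, for 53465 genes. Groups come from the treatment labels; replicate numbers only follow record order. Within groups, every pair of libraries differed beyond counting noise.

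Genes were filtered with filterByExpr (14998 tested), scaled by TMM and tested with edgeR 4.0.16 (glmQLFit, glmQLFTest; 4 group means over all 16 libraries, Benjamini-Hochberg over all genes tested); the script was tested on simulated data. Named were all mitochondrial members, up to 3 called nuclear members per complex, comparison and direction with the smallest p, the 10 least abundant nuclear members tested, tissue isoforms, and up to 4 genes of each other list. The members and lists were chosen with earlier results of these data known. Alternatives were DESeq2 1.42.0, other scalings, no filter, fits of 2 groups and left-out libraries. Shared 50-base words were counted in GENCODE M21 transcripts; all 101 members were found there, 86 with the same identifier version. Counting intervals are exact (95%) and cover counting error only, since reads carry no molecular identifiers.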

Additional observations from a re-analysis of the deposited data

Results flagged for a closer look

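Of 172 groups of 4 libraries examined, 8 held a library set apart from the other 3 by Dixon's 95% critical value for the gap over the group's range; chance flags about 1 in 20 groups. In HFD_PFOA, replicate 3 was lowest for mt-Nd6, at 5205.1 CPM against 7096.8 to 7327.1 in the others, for mt-Cytb, at 29260 CPM against 33635 to 34401, and for the summed mitochondrial level, at 121080 CPM against 137990 to 139080. Atp5j in HFD_PFOA was highest in replicate 2, at 104.02 CPM against 94.7 to 96.2. Uqcrh in CD_vehicle was lowest in replicate 1, at 81.477 CPM against 105.1 to 109.9. Cox6b2 in CD_PFOA was lowest in replicate 4, at 9.6514 CPM against 14.5 to 15.1, still far above every vehicle library. Cox6a2 in CD_vehicle was found in replicate 4 alone, at 0.34173 CPM. Ndufa4l2 in HFD_vehicle was lowest in replicate 2, at 0.71412 CPM against 1.57 to 1.699.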

How the results depend on the processing

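No paired analysis was possible because the labels give no replicate numbers. With library totals as the scale, PFOA in CD gave 8 nuclear members higher and 2 lower, and HFD in vehicle gave 1 nuclear member lower, 0 mitochondrial calls and medians of -0.10 (nuclear) and -0.11 (mitochondrial). Fits of only the 2 groups compared gave 3 higher and 1 lower nuclear member for PFOA in CD, 12 and 2 for PFOA in HFD, 15 lower and 0 mitochondrial calls for HFD in vehicle, and 1 lower for HFD in PFOA. DESeq2 gave 10 nuclear members higher for PFOA in HFD and 1 lower for HFD in PFOA. Without CD_vehicle 1 and 4, an alternative chosen after seeing the data, 7 nuclear members were lower for PFOA in CD, 13 higher for PFOA in HFD, 4 mitochondrial members called for HFD in vehicle, 1 nuclear member lower for HFD in PFOA and 1 higher in the interaction, whose mitochondrial median was 0.31. Leaving out each library in turn, nuclear calls ran from 2 to 8 higher and 2 to 6 lower for PFOA in CD, 3 to 10 higher for PFOA in HFD, 15 to 42 lower for HFD in vehicle and 0 to 1 lower for HFD in PFOA, and mitochondrial calls from 1 to 4 for PFOA in HFD and 0 to 4 for HFD in vehicle. On unscaled totals the mean nuclear sums were 8180 CPM in CD_vehicle and 7771 in HFD_vehicle. On totals without mitochondrial genes CD_PFOA came to 10360, HFD_vehicle to 8794 and HFD_PFOA to 9753, and the mitochondrial sums 184200, 132000 and 162100. No called member changed direction under any alternative run. The cause of these changes was not tested beyond fewer samples or genes where the alternative leaves some out.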

Other observations

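Mitochondrial ribosomal protein genes, which serve the translation of the 13 mitochondrial proteins, were lower with the high-fat diet in vehicle under TMM scaling. edgeR called 11 of 77 lower and none higher, with a median log2 fold change of -0.25. Over all genes tested it called 5.21% lower and 5.19% higher, with a median of -0.03. Mrps27 (-0.70, edgeR adjusted p 0.000284) and Mrpl15 (-0.56, edgeR adjusted p 0.000769) had the smallest p. On library totals the calls over all genes in this comparison were 288 lower and 2052 higher, with a median of 0.19. No other scaling was run for the ribosomal list. With PFOA 4 rose and 7 fell in the control diet, and 8 rose and 1 fell in the high-fat diet, where 11.8% and 12.6% of all genes rose and fell in the control diet and 8.60% and 7.91% in the high-fat diet.

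In the tricarboxylic acid cycle, which makes the NADH and succinate that the chain oxidises, 6 of 14 genes rose and 1 fell with PFOA in the control diet, and 5 rose in the high-fat diet. Of all genes tested 11.8% rose and 12.6% fell with PFOA in the control diet, and 8.60% and 7.91% in the high-fat diet. Mdh2, malate dehydrogenase, rose by 0.56 and 0.55 on the log2 scale. Fh1, fumarate hydratase, fell by 0.37 with PFOA in the control diet and by 0.59 with the high-fat diet in vehicle. In that diet comparison 1 of the 14 genes was called higher and 1 lower, beside 5.19% and 5.21% of all genes.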
